A study of Mus musculus with 10 samples.

Results

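Granzymes are serine proteases that natural killer cells (NKC) and cytotoxic T cells store in secretory granules, and perforin (Prf1) forms the pores through which they reach the inside of a target cell. Granzyme B (Gzmb) cuts after aspartate and starts apoptosis, granzymes A (Gzma) and K (Gzmk) cut after basic residues, and granzyme M (Gzmm) cuts after methionine or leucine. Granzymes C to G (Gzmc, Gzmd, Gzme, Gzmf, Gzmg) are close copies of each other that lie beside Gzmb in rodents and are less well understood. Here the 10 genes of the family that were listed by name were followed through every array, out of 18194 genes with a named probe set. They are represented by 12 of the 45101 probe sets on the array, which carry exactly 1 gene symbol each, and by 1 further probe set that the platform's gene table assigns to both Gzmd and Gzme.

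RNA was measured in splenic NKC of ICR mice aged 6 weeks, either Runx3 +/+ (WT) or Runx3 -/- (KO), with mice of either sex. After enrichment by negative selection NKC were grown for 7 days in recombinant human IL-2 at 1000 u/ml or in mouse IL-15, and the methods also mention sorting of DX5-positive cells. In IL-2 there were 3 arrays of each genotype and in IL-15 there were 2, each from a separate mouse. Runx3 belongs to the RUNX family of DNA-binding factors, and the labels name no promoter or cell type that would limit its loss to NKC.

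The values are log2 signals per probe set. Same-numbered arrays of the genotypes form pairs whose common level had been equalised before deposit: within a cytokine the WT and KO values of a pair add up to the same sum for every pair, to within 0.00014. The KO minus WT difference of each pair (3 pairs for IL-2, 2 for IL-15) is therefore the quantity that carries the replicate information, and errors below are SD over pairs. It also follows that WT and KO arrays of a gene fail to overlap exactly when every pair differs in the same direction. Testing was limited to genes whose brightest probe set was at log2 5 or more on 2 or more arrays, that is 9391 genes and 9 of the 10 members. "Fell" and "rose" are used for genes with a limma adjusted p under 0.05 over all tested genes and a change of at least 1.5-fold. Intervals and p-values are from limma, whose spread for a gene is shared by both cytokines and drawn toward that of all tested genes. An interval can therefore be narrower than the pairs of 1 cytokine alone would give, as for Gzmf and Gzmg in IL-2.

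Some member values lie at or above log2 16, the top of the range of a 16-bit scanner. This was so for 11 of the 100 member values, in 6 of the 10 members, against 117 of 451010 values in the whole table. The highest value of the table, 19.73, belongs to the probe set shared by Gzmd and Gzme. What produced values above this range was not tested, and the deposited table holds no saturation flag.

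Runx3 itself read 11.65 on average in WT cells and 11.07 in KO cells grown with IL-2 (difference -0.58 ± 0.76), and 12.48 and 11.38 with IL-15 (-1.09 ± 0.09). The place of its probes relative to the deleted part was not known here, so this does not check the genotype. Of 9 NKC marker genes with a probe set, 8 were bright enough to be tested, while Itga2, which encodes the DX5 antigen, was under log2 5 in all arrays. Xist, the RNA of the inactive X chromosome, read 14.28 to 14.66 with IL-15 but 4.64 to 5.37 with IL-2, so the sex of the mice and the cytokine cannot be told apart.

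The stretches of 250 bases before the annotated starts of 6 members are shown so that those of Gzmc, Gzmf and Gzmg, which share a layout, can be set beside those of Gzmb, Gzma and Prf1. Capitals mark the RUNX letters TGTGGT, or ACCACA where they lie on the other strand. Sequences are from RefSeq (GRCm38.p6) and are written 5′ to 3′ in the direction of the gene.
Gzmf (chr14:56211408-56211657, minus strand): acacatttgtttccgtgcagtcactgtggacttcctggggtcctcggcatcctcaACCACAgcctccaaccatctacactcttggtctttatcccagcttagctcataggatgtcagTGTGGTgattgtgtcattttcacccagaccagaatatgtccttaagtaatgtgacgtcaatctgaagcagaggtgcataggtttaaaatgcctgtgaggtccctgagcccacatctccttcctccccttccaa
Gzmg (chr14:56159580-56159829, minus strand): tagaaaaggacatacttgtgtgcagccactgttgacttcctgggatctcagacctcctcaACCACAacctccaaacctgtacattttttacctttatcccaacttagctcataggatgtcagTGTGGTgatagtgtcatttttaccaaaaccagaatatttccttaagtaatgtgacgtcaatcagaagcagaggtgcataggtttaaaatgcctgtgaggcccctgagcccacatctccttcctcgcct
Gzmc (chr14:56234658-56234907, minus strand): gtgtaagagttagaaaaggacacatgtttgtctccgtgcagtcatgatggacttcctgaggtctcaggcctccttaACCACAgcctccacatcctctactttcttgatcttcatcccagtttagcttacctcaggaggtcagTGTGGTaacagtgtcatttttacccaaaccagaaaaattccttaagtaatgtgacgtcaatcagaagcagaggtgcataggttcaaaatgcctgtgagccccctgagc
Gzmb (chr14:56262335-56262584, minus strand): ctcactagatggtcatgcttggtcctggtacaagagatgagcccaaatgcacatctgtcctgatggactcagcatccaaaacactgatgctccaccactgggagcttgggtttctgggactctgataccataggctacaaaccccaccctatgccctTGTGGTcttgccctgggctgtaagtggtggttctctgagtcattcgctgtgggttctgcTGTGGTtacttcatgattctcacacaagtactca
Gzma (chr13:113100982-113101231, minus strand): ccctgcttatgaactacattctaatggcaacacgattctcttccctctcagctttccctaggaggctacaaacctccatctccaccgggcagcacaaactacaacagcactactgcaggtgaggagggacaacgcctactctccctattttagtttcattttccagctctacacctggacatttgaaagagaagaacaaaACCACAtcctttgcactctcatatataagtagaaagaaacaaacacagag
Prf1 (chr10:61297586-61297835, plus strand): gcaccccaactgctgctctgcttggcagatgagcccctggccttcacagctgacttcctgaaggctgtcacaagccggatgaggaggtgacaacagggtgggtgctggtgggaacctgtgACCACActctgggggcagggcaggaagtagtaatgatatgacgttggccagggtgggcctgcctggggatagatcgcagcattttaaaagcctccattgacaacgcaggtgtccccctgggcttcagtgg

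The 5 windows of Gzmc to Gzmg each hold ACCACA followed by TGTGGT. The starts of the pair of matches are 62 bases apart in Gzmd, Gzme, Gzmf and Gzmg and 66 bases apart in Gzmc. In Gzmf they begin 195 and 133 bases before the start, in Gzmg 190 and 128 bases, and in Gzmc 174 and 108 bases. Of all 32851 windows in the RefSeq table, 93 hold ACCACA before TGTGGT at any spacing and 8 hold them 62 to 66 bases apart, Gzmc to Gzmg included. The arrangement and this range were taken from the 5 windows themselves, so the counts describe how common it is and test nothing. Aligned over the window, the 10 pairs among these 5 genes were 84.4% to 95.6% identical, whereas Gzmc to Gzmg were 53.1% to 65.8% identical to the windows of the other members and of Gzmn. Gzmb instead holds TGTGGT on its own strand at 93 and 34 bases before the start, with the AP-1 letters TGAGTCA at 58 bases. Prf1 holds ACCACA at 130 bases and Gzma at 50 bases, and the Gzmk window holds none of the RUNX letters.

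For comparison, TGTGGT or a variant of it with a final C (TGTGGC), an inner C (TGCGGT) or both (TGCGGC), on either strand, occurred at least once in 38% and at least 2 times in 8.92% of all windows. The AP-1 letters TGANTCA occurred in 6.75% of them. The ATF letters TGACGTCA, looked for after the sequences had been seen, occurred in 1.55% of all windows and in those of Gzmc, Gzmf and Gzmg. A match of letters is a description of the sequence and does not show that a factor binds there.

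**Figure D1:**
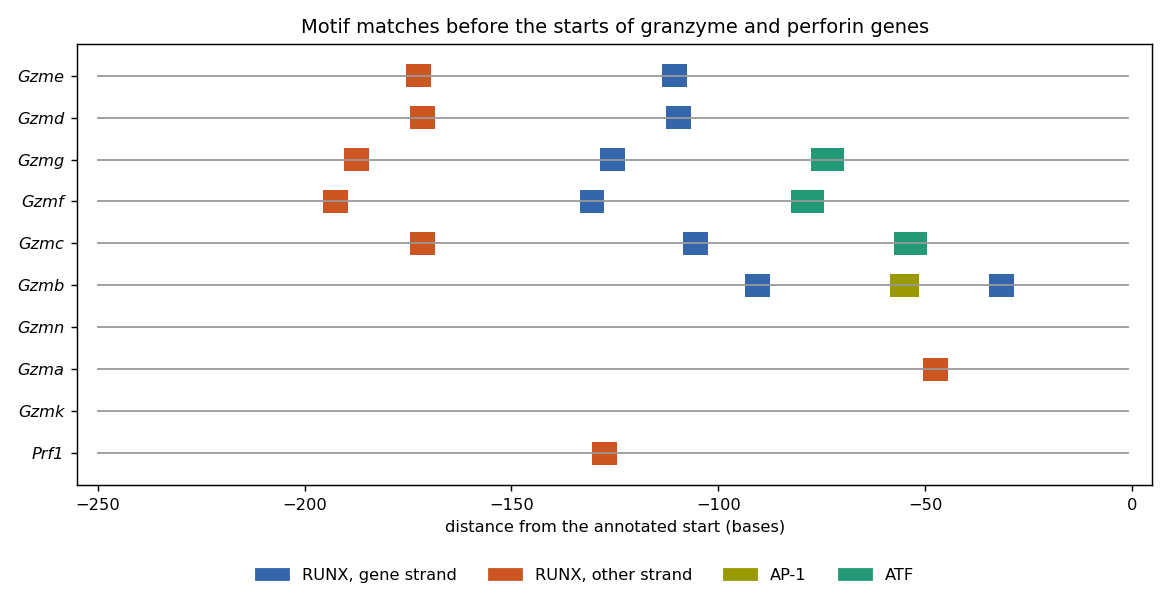
Positions of motif matches in the 250 bases before the annotated start of 9 members and of Gzmn (horizontal axis, bases from the start; rows, genes). Blue and orange boxes are RUNX letters on the gene's strand and on the other strand, and Gzmc, Gzmd, Gzme, Gzmf and Gzmg share an orange box followed by a blue box.

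Perforin RNA was lower without Runx3 in both cytokines by a similar amount, and the fall passed the test in IL-2. In IL-2 the 3 WT arrays had log2 signals of 15, 14.33 and 15.23 and the 3 KO arrays 12.97, 13.64 and 12.75, so the groups did not overlap. Prf1 fell by 1.73 ± 0.94 on the log2 scale (3.32-fold, 95% confidence interval of the difference -2.62 to -0.85, adjusted p = 0.0217). In IL-15 the WT arrays stood at 13.89 and 13.89 and the KO arrays at 12.14 and 12.13, a difference of -1.76 in each pair (3.38-fold; adjusted p = 0.137). The IL-15 effect minus the IL-2 effect was -0.02, with an interval from -1.42 to 1.37. A further Prf1 probe set lay near background, at 2.28 to 2.50, in every array and showed no difference beyond 0.10 ± 0.17 in size. In bulk RNA, fewer cells that make perforin and less perforin RNA per cell cannot be told apart, and the same holds for every gene below.

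Granzymes A and B, by contrast, were at the top of the signal range in all arrays, and neither passed the test. Gzma lay between 15.85 and 16.14 in the 10 arrays, with WT values of 15.85, 16.10 and 16.06 and KO values of 16.14, 15.89 and 15.94 in IL-2. These groups overlapped, as did those of IL-15, where WT arrays read 15.94 and 15.99 and KO arrays 16 and 15.96. The KO minus WT difference in Gzma was -0.02 ± 0.27 in IL-2 (interval -0.59 to 0.56) and 0.01 ± 0.07 in IL-15 (interval -0.69 to 0.72). Its sign turned when single arrays were left out.

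Gzmb read 15.65, 15.66 and 15.74 in WT and 15.59, 15.58 and 15.50 in KO cells in IL-2. In IL-15 it read 15.53 and 15.68 in WT and 15.34 and 15.19 in KO cells. KO arrays were the lower ones in both cytokines and did not overlap WT arrays, yet the differences were small: -0.13 ± 0.10 in IL-2 (interval -0.68 to 0.43, adjusted p = 0.738) and -0.34 ± 0.21 in IL-15 (interval -1.02 to 0.34, adjusted p = 0.704). The intervals of both genes reach past the 1.5-fold used as a threshold here, and a signal near log2 16 could understate a difference.

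Granzymes C to G had the widest differences among the members. Gzmc, Gzmf and Gzmg fell in IL-2, and Gzmc fell in IL-15 as well. With Prf1, this made 4 of 9 tested members that fell in IL-2 and 0 that rose, where 9.17% of all tested genes fell, 10.5% rose and 19.7% changed in either direction. In IL-15, 1 of 9 fell and 0 rose, against 0.841% of all tested genes that fell, 0.458% that rose and 1.3% that changed. The median difference over the 9 members was -3.62 in IL-2 and -7.32 in IL-15, beside 0.11 and -0.01 over all tested genes.

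Gzmc was the member whose fall passed the test in both cytokines. In IL-2 its WT arrays read 15.98, 14.93 and 16.80 and its KO arrays 11.85, 12.89 and 11.03. That is a fall by 3.98 ± 1.87 on the log2 scale (15.8-fold, interval -5.56 to -2.40, adjusted p = 0.0103). In IL-15 the WT arrays read 14.66 and 13.97 and the KO arrays 6.65 and 7.35, a fall by 7.32 ± 0.98 (159-fold, interval -9.25 to -5.38, adjusted p = 0.0165). WT and KO arrays of Gzmc stood apart in both cytokines.

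Gzmf, whose mean difference in IL-2 was the widest among the members, was high in WT cells. Its WT arrays in IL-2 read 15.59, 12.49 and 17.00 and its KO arrays 6.44, 9.54 and 5.03. The fall was 8.02 ± 4.61 on the log2 scale, or 260-fold (interval -11.78 to -4.27, adjusted p = 0.0168). In IL-15 the WT arrays read 12.10 and 10.21, whereas the KO arrays, at 0.65 and 2.54, were both under log2 5. Its difference there was -9.56 ± 2.68, at least 71.2-fold when set against log2 5, with an adjusted p of 0.0783.

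Gzmg also fell in IL-2. WT arrays in IL-2 read 16.67, 13.84 and 19.33 and KO arrays 9.63, 12.46 and 6.97, a fall by 6.92 ± 5.49 (121-fold, interval -11.16 to -2.68, adjusted p = 0.0385). When values above log2 16 were set to 16, the fall was 5.59. In IL-15 its WT arrays read 13.69 and 12.36 and its KO arrays 1.45 and 2.77. That difference, -10.92 ± 1.87 and at least 261-fold, had an adjusted p of 0.0768.

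Gzmd and Gzme ran in parallel with each other. For Gzmd the WT arrays in IL-2 read 15.62, 14.80 and 18.72 and the KO arrays 13.52, 14.34 and 10.43. For Gzme they read 16.53, 15.63 and 19.42 against 13.90, 14.80 and 11.02. WT and KO arrays did not overlap for either gene, but the spread between pairs was as large as the difference: -3.62 ± 4.13 for Gzmd (adjusted p = 0.128) and -3.95 ± 3.95 for Gzme (adjusted p = 0.11). In IL-15 Gzmd read 14.74 and 12.65 in WT and 3.62 and 5.71 in KO cells, and Gzme 15.15 and 12.48 in WT and 4.24 and 6.91 in KO cells. Their differences in IL-15 were -9.04 ± 2.95, at least 415-fold, for Gzmd (adjusted p = 0.0757) and -8.24 ± 3.77, for Gzme (adjusted p = 0.106), where 1 of 2 KO arrays was under log2 5.

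Gzmd and Gzme are the members whose probe sets are least able to tell copies apart. Both genes are represented by probe sets with the suffix x_at, which the maker gives to sets whose probes may bind related transcripts. The other Gzmd probe set differed by -3.81 ± 4.38 in IL-2 and -9.39 ± 2.94 in IL-15. The probe set that the platform's table assigns to both genes differed by -3.92 ± 4.02 and -8.32 ± 4.96. These 4 probe sets cannot be read as separate measurements of 2 genes. Cross-binding among Gzmc, Gzmf and Gzmg was not tested, since the probe letters were not used here.

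Among the 3 IL-2 pairs the KO minus WT difference varied in a shared order. For Gzmc, Gzmd, Gzme, Gzmf, Gzmg and Prf1 it was lowest in pair 3, then in pair 1, then in pair 2. This signed order was found in 15.8% of all tested genes. Gzmb and Gzmk were lowest in pair 3, then pair 2, then pair 1. In pair 2 the differences were -2.04 for Gzmc, -0.46 for Gzmd, -0.83 for Gzme, -2.95 for Gzmf, -1.38 for Gzmg and -0.68 for Prf1. In pair 3 they were -5.77, -8.29, -8.40, -11.96, -12.35 and -2.48 for the same genes in the same order. Over all tested genes the median size was 0.68, 0.66 and 0.57 in pairs 1, 2 and 3, so pair 3 did not have wider differences in general. The macrophage markers Cd14 and Csf1r had the same pair order. In pairs 1, 2 and 3 Cd14 differed by -3.68, -1.07 and -6.90 and Csf1r by -1.63, 1.79 and -4.83. Lyz2 (3.32, 5.82 and -0.45) and Itgax (0.60, 4.89 and -1.76) had it too, but were mostly higher in KO cells. The other tested macrophage and dendritic cell genes, Cd74, H2-Aa, Cd68 and Adgre1, did not have this order. The part of such cells in the granzyme values was not tested. By their SD over the IL-2 pairs, Gzmg, Gzmf, Gzmd and Gzme were the 3rd, 4th, 5th and 8th most variable of the 9391 tested genes.

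The calls depended on these pairs. Without pair 2, Gzmc, Gzmf, Gzmg and Prf1 still fell in IL-2. Without pair 3 only Gzmc of the 4 did, and without pair 1 none of them passed, with every difference still below 0. Leaving out either IL-15 pair ended the call of Gzmc in IL-15, at differences of -8.01 and -6.62. With no filter on low values, more genes entered both the limma fit and the adjustment, and 0 members passed in either cytokine. The adjusted p in IL-2 was then 0.0779 for Gzmc, 0.0923 for Prf1, 0.117 for Gzmf and 0.194 for Gzmg.

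**Figure D2:**
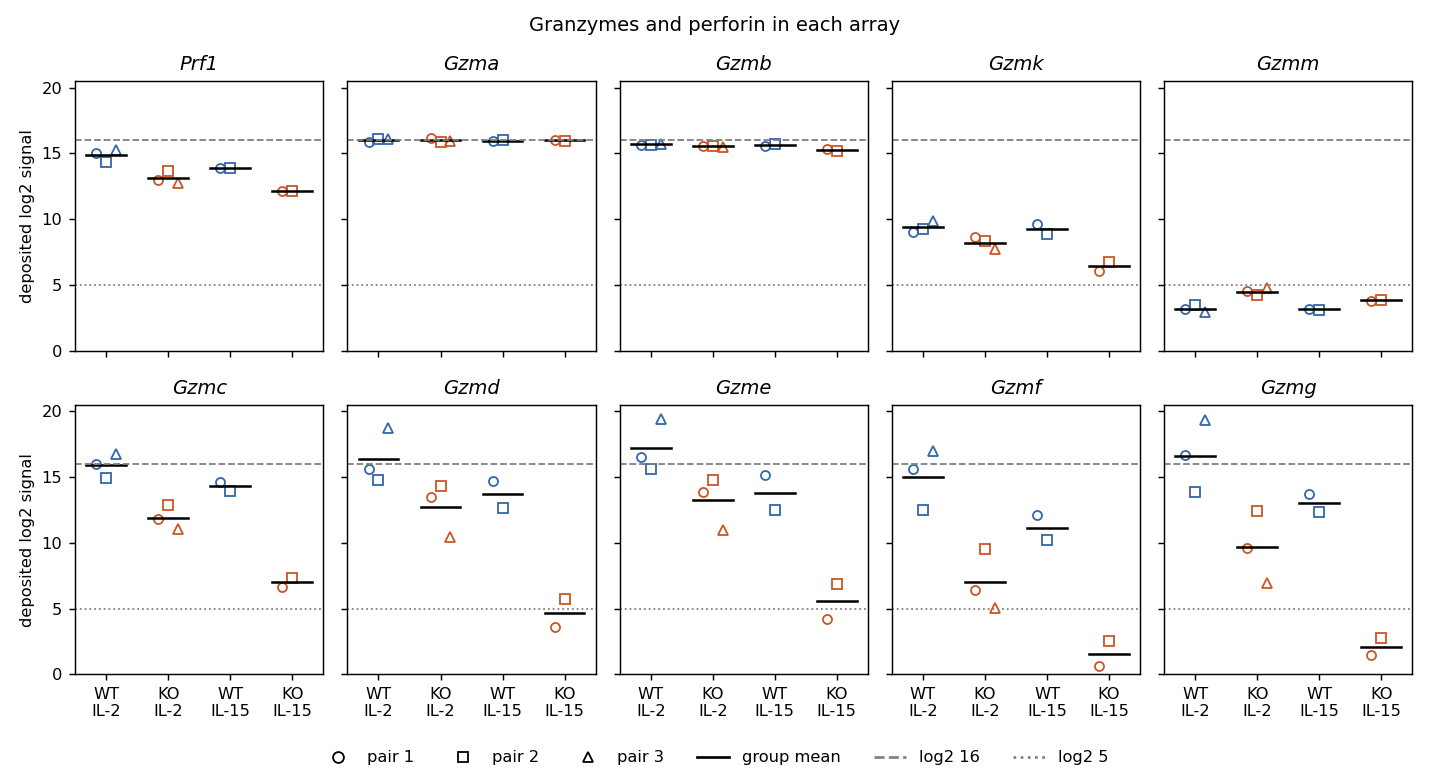
Deposited log2 signal of each member (panels; vertical axis) in the 10 arrays, by genotype and cytokine (horizontal axis); symbols mark the pair, bars the group mean, the dashed line log2 16 and the dotted line log2 5. With IL-15, WT arrays of Gzmc to Gzmg lie between 10.21 and 15.15 and KO arrays between 0.65 and 7.35, whereas Gzma and Gzmb lie between 15.19 and 16.14 in all arrays.

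Granzyme K, a tryptase like granzyme A and its neighbour on chromosome 13, had a smaller difference that did not pass the test. In IL-2 its WT arrays read 8.98, 9.28 and 9.88 and its KO arrays 8.61, 8.31 and 7.72, a difference of -1.17 ± 0.91 (2.25-fold, adjusted p = 0.102). In IL-15 the WT arrays read 9.64 and 8.89 and the KO arrays 6.02 and 6.77, a difference of -2.87 ± 1.06 (7.3-fold, adjusted p = 0.0631). All 5 pairs had the lower value in KO cells. Granzyme M was the member that was too dim to test: all arrays were under log2 5, at 2.94 to 3.47 in WT and 3.79 to 4.72 in KO cells, and no fold is given.

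Counted by overlap, KO arrays lay wholly below WT arrays for 8 of the 9 tested members in IL-2, where this was so for 23.2% of all tested genes, and for 8 of 9 in IL-15, where it was so for 32.9%. Gzma was the exception in both.

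**Figure D3:**
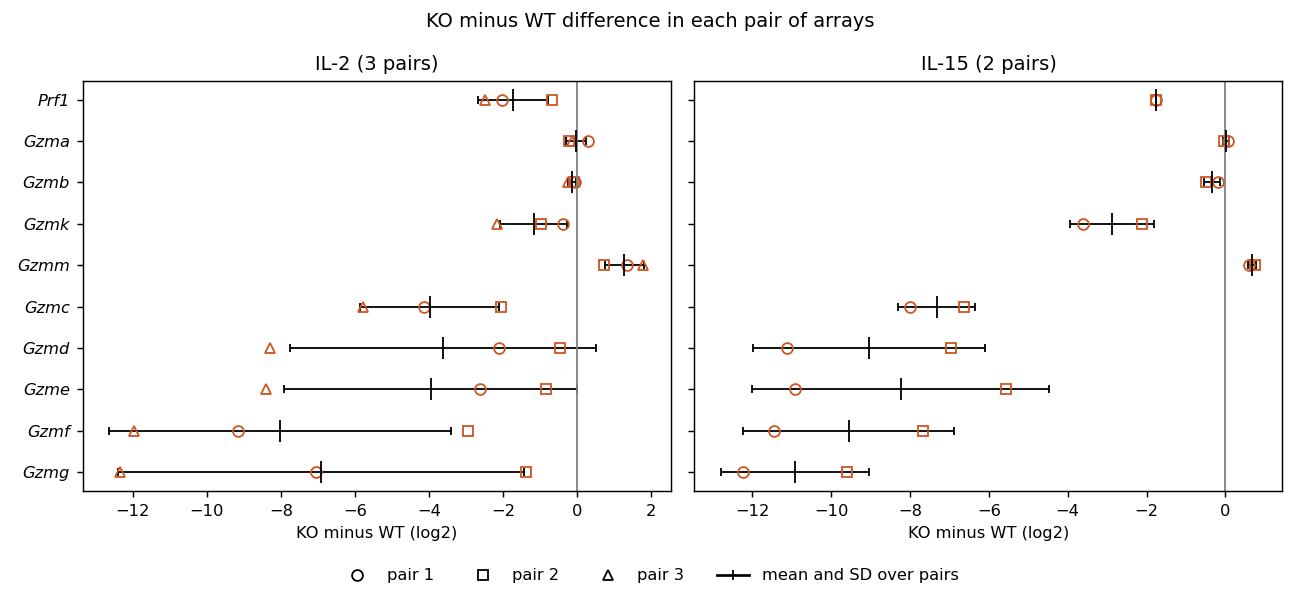
Log2 signal of the KO array minus that of the WT array (horizontal axis) of each member (rows) in each pair of arrays, in IL-2 (left, 3 pairs) and IL-15 (right, 2 pairs); symbols are pairs, and bars show the mean and SD. Gzma and Gzmb sit near 0, Prf1 near -1.7 in both cytokines, and Gzmc to Gzmg reach from -0.46 to -12.35 in IL-2 and from -5.57 to -12.24 in IL-15.

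In the gene cluster on chromosome 14, every tested gene from Cma1 to Gzmc had a lower mean in KO than in WT cells in both cytokines. Of all tested genes, 43.4% had a lower KO mean in IL-2 and 50.9% in IL-15. In the order of the annotation the cluster runs from Cma1 through Mcpt8, Ctsg, Gzme, Gzmd, Gzmg, Gzmn, Gzmf and Gzmc to Gzmb. Besides the granzymes it encodes chymase-type proteases best known from mast cells, basophils and myeloid cells. The 4 tested genes of the cluster that are no members all fell in IL-2, where 9.17% of all tested genes fell. One of them, Gzmn, was under log2 5 in every KO array, so it entered the test through WT arrays alone. Ctsg, cathepsin G, fell by 7.56 ± 3.01 (adjusted p = 0.0055), from a mean of 12.85 to 5.29. Its KO arrays read 4.56, 7.02 and 4.28, so that 2 of 3 were under log2 5 and the size is not exact. Mcpt8, a basophil protease, fell by 6.63 ± 2.16 (99.2-fold, adjusted p = 0.00481), from 13.46 to 6.82. Cma1, a chymase, fell by 6.15 ± 1.43 (at least 44.5-fold, adjusted p = 0.00908), and Gzmn, granzyme N, fell by 5.06 ± 1.15 (at least 6.52-fold, adjusted p = 0.00306).

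In IL-15, Ctsg fell by 8.24 ± 0.93 and Mcpt8 fell by 7.02 ± 1.75 (adjusted p = 0.0364 for each). Their KO means of 1.4 and 2.55 were under log2 5, which bounds the falls at 24.9-fold or more for Ctsg and 23.9-fold or more for Mcpt8. Cma1 differed by -4.05 ± 3.78 (adjusted p = 0.189) and Gzmn by -1.44 ± 1.46 (adjusted p = 0.41). Mcpt1, Mcpt2 and Mcpt4, which lie between Cma1 and Mcpt8, were under log2 5 in all arrays. On the far side of Cma1, Sdr39u1 differed by 0.59 (adjusted p = 0.217) and Khnyn by 0.26 (adjusted p = 0.724) in IL-2. Gzmb, which closes the row of granzymes at the other end, is the member with the difference of -0.13 described above, and the next genes, Atp12a and Rnf17, were too dim to test. The promoter window of Gzmn was 56.8% to 59.8% identical to those of Gzmc to Gzmg and held none of the RUNX letters, and that of Ctsg held ACCACA at 79 bases before the start. Of the other neighbours, Cma1, which fell, held none, Mcpt8, which fell, held 3 matches, and the dim genes Mcpt1 and Mcpt4 held 3 and 2.

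**Figure D4:**
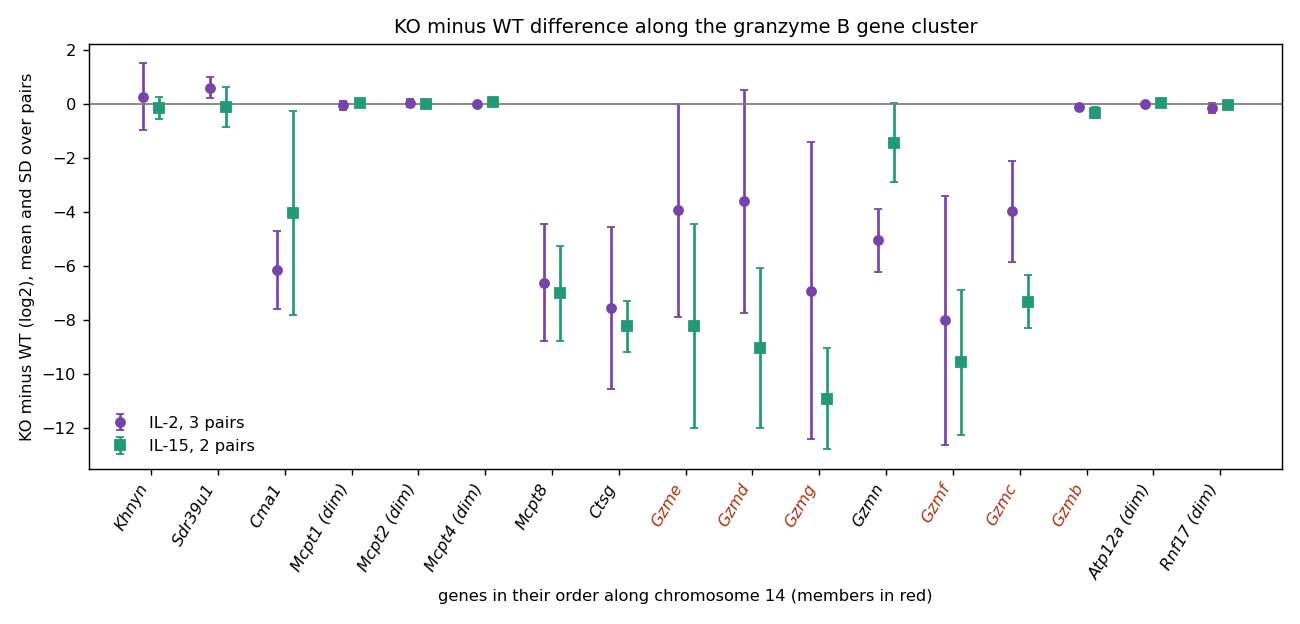
KO minus WT difference (vertical axis, log2, mean and SD over 3 IL-2 pairs and over 2 IL-15 pairs) of genes in their order on chromosome 14 (horizontal axis, not to distance; members in red, genes under the test threshold marked dim). Values drop from Cma1 to Gzmc, with the dim genes Mcpt1, Mcpt2 and Mcpt4 at 0 between them, and return to near 0 at Gzmb.

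Whether the effect of Runx3 loss differed between the cytokines was tested directly, and 0 of the 9391 genes (0%) passed in limma, with 1106 genes (11.8%) and 2 of 9 members at an unadjusted p under 0.05. The IL-15 effect minus the IL-2 effect was -3.33 for Gzmc (interval -5.83 to -0.84, unadjusted p from limma 0.0162, adjusted p = 0.329) and -1.70 for Gzmk (interval -3.33 to -0.07, unadjusted p 0.043, adjusted p = 0.41). It was -5.42 for Gzmd, -4.29 for Gzme, -4.00 for Gzmg and -1.54 for Gzmf, with adjusted p of 0.428 to 0.839. These sizes are not exact, because KO arrays in IL-15 lay under log2 5 and WT arrays in IL-2 above log2 16. With the cap at 16 they were -6.33 for Gzmd, -5.60 for Gzme, -5.33 for Gzmg and -1.87 for Gzmf. The members' median was -1.70, beside -0.14 over all tested genes. These differences between the effects carry the split in Xist given above, so sex and cytokine cannot be told apart in them.

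The 2 cytokines were also compared within each genotype. The p-values of these comparisons, in WT and in KO cells, are too small by an unknown amount, because pair differences had been removed. Both comparisons also carry the split in Xist given above. In WT cells, Prf1 fell by 0.96 on the log2 scale from IL-2 to IL-15 (adjusted p = 0.0302), the call of 1 of 9 members with 0 that rose, where 18.7% of all tested genes fell, 29.4% rose and 48% changed. Gzmc differed by -1.59, Gzmd by -2.68, Gzme by -3.38, Gzmg by -3.58 and Gzmf by -3.87, with adjusted p of 0.0632 to 0.151. With values above log2 16 set to 16, the difference was -1.32 for Gzmc, -1.78 for Gzmd, -2.06 for Gzme, -2.25 for Gzmg and -3.54 for Gzmf. Gzmk differed by -0.11, Gzmb by -0.08 and Gzma by -0.04.

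In KO cells 7 of 9 members fell and 0 rose from IL-2 to IL-15, where 22.5% of all tested genes fell, 23.6% rose and 46.1% changed. Gzmc fell by 4.92 (adjusted p = 0.000411), Gzmd fell by 8.10 (at least 217-fold, adjusted p = 0.00212), Gzme fell by 7.67 (adjusted p = 0.00318) and Gzmg fell by 7.58 (at least 25.8-fold, adjusted p = 0.00753). Gzmf fell by 5.41 (at least 4.01-fold, adjusted p = 0.0195), Gzmk by 1.81 (3.52-fold, adjusted p = 0.00473) and Prf1 by 0.98 (1.98-fold, adjusted p = 0.028). Gzmb differed by -0.30 (adjusted p = 0.0679) and Gzma by -0.01 (adjusted p = 0.96). These p-values are too small by an unknown amount, because pair differences had been removed, and they carry the split in Xist given above. The WT call of Prf1 was lost without any WT array other than IL-2 array 2. The KO calls of Gzmf and Gzmg were lost without KO IL-15 array 1, and that of Prf1 without KO IL-2 array 2 or either KO IL-15 array.

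Set in order, the group means of 8 members ran from WT in IL-2 through WT in IL-15 and KO in IL-2 down to KO in IL-15. These were Prf1, Gzmb, Gzmc, Gzmd, Gzme, Gzmf, Gzmg and Gzmk. How many of all tested genes had this order was not counted, so it is not shown to be particular to these members. Gzmd and Gzme are not separate measurements here, and the Gzmb means lay between 15.26 and 15.69. The first step, between the WT groups, passed the test for Prf1 alone. At the middle step, from WT in IL-15 to KO in IL-2, arrays overlapped for Gzmb, Gzmd, Gzme and Gzmg and not for Gzmc, Gzmf, Gzmk and Prf1. Lowest WT values of the latter were 13.97, 10.21, 8.89 and 13.89, and highest KO values 12.89, 9.54, 8.61 and 13.64, in that order. The share of all tested genes without overlap at this step was not counted. The last step passed the test for the 7 other than Gzmb. The group means of Gzma differed by at most 0.04.

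Genes outside the family with the most similar profile over the 10 arrays were looked up for 4 members, as a description of arrays that share genotypes and cytokines. Avil (r = 0.997), Ptger2 (r = 0.992) and Ctsg (r = 0.991) were closest to Gzmf, and Ctsg (r = 0.992), Avil (r = 0.991) and Scd1 (r = 0.99) closest to Prf1. Avil encodes the actin-binding protein advillin and had group means of 14.41 in WT and 8.49 in KO cells in IL-2. Scd1, the stearoyl-CoA desaturase, had means of 13.63 and 6.18 there. Fastk, Ssr4 and Plpp1 were closest to Gzmb (r = 0.986 to 0.988), whereas no gene exceeded r = 0.897 with Gzma, which was reached by B3gntl1.

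Genes that act on granzymes inside the producing cell were counted by role. For these counts the shares over all tested genes in IL-2 are the 10.5% that rose and the 9.17% that fell given above. Of 13 tested genes for loading and processing in the granule, 1 rose and 0 fell in IL-2, near those shares, and none passed in IL-15. The one that rose was Ctsw, cathepsin W, by 1.46 ± 0.44 (adjusted p = 0.0147). Ctsc, which encodes the dipeptidyl peptidase that activates granzymes, differed by -0.31, and Srgn, the proteoglycan core that holds them in the granule, by -0.16. Their median was 0.04 in IL-2, beside 0.11 over all tested genes.

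Of 21 tested genes for granule release, 2 rose and 5 fell in IL-2, where 10.5% of all tested genes rose and 9.17% fell, and none passed in IL-15. The number that rose is near that share. Sytl2, a Rab27 effector, fell by 2.17 ± 0.25 (adjusted p = 0.00545), and Rab27b by 1.52 ± 1.01 (adjusted p = 0.0419). Sytl1, its relative, rose by 2.33 ± 0.30 (adjusted p = 0.0055), and Was, an actin regulator, by 1.0 ± 0.44 (adjusted p = 0.0439).

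All 5 tested serpins that inhibit granzymes or related granule proteases changed in IL-2, 4 downward and 1 upward, where 19.7% of all tested genes changed. Serpinb6a fell by 2.86 ± 1.0 (adjusted p = 0.00733) and Serpinb9b by 2.55 ± 0.35 (adjusted p = 0.00996). Serpinb1a rose by 1.07 ± 0.40 (adjusted p = 0.0334). In IL-15 Serpinb6a fell by 3.31 ± 0.79 (adjusted p = 0.0432) and the other 4 did not pass, where 0.841% of all tested genes fell. The list's median was -2.26 in IL-2 and -2.21 in IL-15.

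Among 21 tested regulators of granule genes, 4 rose and 1 fell in IL-2, where 10.5% of all tested genes rose and 9.17% fell. Tbx21, which is counted again in the list of NKC markers below, is 1 of the 4 that rose. Runx1, a relative of Runx3 that binds the same letters, rose by 2.64 ± 1.13 (adjusted p = 0.0115) and Notch2 by 1.89 ± 0.41 (adjusted p = 0.0064). Il2ra, the alpha subunit of the IL-2 receptor, fell by 1.95 ± 0.34 (adjusted p = 0.0162), whereas in IL-15 its KO minus WT difference was 1.52 ± 1.28 (adjusted p = 0.202). The difference between these effects was 3.47 (adjusted p = 0.182). In IL-15 the transcription factor Irf4 fell by 2.78 ± 0.83 (at least 2.58-fold, adjusted p = 0.0364) and no other gene of the list passed. Of the 5 genes for other routes of killing, 3 rose in IL-2, among them Lta, lymphotoxin alpha, by 3.20 ± 1.27 (at least 7.62-fold, adjusted p = 0.00671), and Tnfsf10, the death ligand TRAIL, by 2.05 ± 1.20 (adjusted p = 0.0254). None of these 5 passed in IL-15.

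Markers of NKC and of other cells were set beside these values. The summed signal of the NKC list lay between 16.23 and 16.62 on the log2 scale in WT and between 16.29 and 16.63 in KO arrays in IL-2, and between 16.77 and 16.79 and between 16.54 and 16.55 in IL-15. With IL-2, 2 of its 8 tested genes rose, Ncr1 by 2.11 ± 0.98 and Tbx21 by 1.42 ± 0.67, where 10.5% of all tested genes rose. None of the 8 passed in IL-15. Klrk1, Klrd1, Il2rb, Eomes, Nkg7 and Tyrobp did not pass in IL-2 either. In this order their differences were 0.23, 0.10, -0.36, -0.66, 0.22 and -0.31 in IL-2. In IL-15 they were -1.43, -0.65, -0.73, -0.25, 0.28 and -0.10. The median over the 8 genes was 0.16 in IL-2 and -0.17 in IL-15. The T cell list summed to 11.87 to 12.35 in WT and 12.43 to 12.75 in KO arrays in IL-2, and to 12.59 to 13.06 and 13.08 to 13.26 in IL-15. Of its 6 tested genes Bcl11b (3.15 ± 0.09) and Lat (1.17 ± 0.05) rose in IL-2, where 10.5% of all tested genes rose. Bcl11b rose in IL-15 (1.80 ± 0.09), where 0.458% did. Cd3d, Cd3e, Cd3g and Cd28 did not pass. In that order they differed by 0.90, 1.14, -0.56 and -0.17 in IL-2 and by -0.04, 0.23, -2.13 and 0.45 in IL-15. Cd4, Cd5, Cd8a and Cd8b1 were under log2 5 in all arrays.

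Of the mast cell and basophil list, 2 of 3 tested genes fell in each cytokine, where 9.17% of all tested genes fell in IL-2 and 0.841% in IL-15. Its summed signal was 12.54 to 14.57 in WT and 7.08 to 8.46 in KO arrays in IL-2, and 9.81 to 11.13 and 6.30 to 6.90 in IL-15. Its falling genes were Mcpt8 and Cma1 in IL-2 and Mcpt8 and Cpa3 in IL-15, where Cpa3 fell by 3.03 ± 1.48 (at least 4.74-fold). Cpa3 was under log2 5 in every KO array and entered the test through WT arrays alone. Mcpt8 and Cma1 are the cluster genes already described, and Mcpt8, at 14.44, 12.30 and 13.62 in the WT arrays in IL-2, makes up most of the sum there. The defining genes Fcer1a, Ms4a2, Hdc, Gata2, Tpsb2 and Tpsab1, 6 of its 9 measured genes, were under log2 5 in every array. The B cell list summed to 8.77 to 8.89 in WT and 11.16 to 11.18 in KO arrays in IL-2 and to 9.83 to 10.74 and 10.75 to 11.67 in IL-15. Its 2 tested genes, Blk and Ighm, rose in IL-2, where 10.5% of all tested genes rose. Blk was under log2 5 in every WT array and entered the test through KO arrays alone. Cd79a, Cd79b, Ms4a1 and Pax5 were under log2 5 throughout. Of 8 tested macrophage and dendritic cell genes, Cd74 and H2-Aa rose and Cd14 fell in IL-2, and none passed in IL-15. Of all tested genes 10.5% rose and 9.17% fell in IL-2, and the number that fell is near that share. Cd74 was under log2 5 in every WT array. The summed signal of this list was 8.37 to 10.89 in WT and 9.95 to 11.54 in KO arrays in IL-2, and 10.09 to 10.77 and 9.64 to 10.44 in IL-15. All 8 granulocyte genes with a probe set, S100a8, Mpo and Elane among them, were under log2 5 in every array. The part of other cells in the granzyme values was not tested beyond these levels.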

How the data were processed

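RNA of 10 cultures had been hybridised to 1-colour Affymetrix arrays. The authors deposited log2 signals per probe set, computed with GC-RMA in Partek (versions not given), and these were used without further scaling. Probe sets took symbols from the platform's gene table (34958 with 1 symbol), and the brightest one with 1 symbol stood for a gene. Genes at log2 5 or more in at least 2 arrays were fitted together with limma 3.58.1 in R 4.3.3, with Benjamini-Hochberg adjustment. For KO against WT the array pair was a block, because the pair sums were equal (crossed sums differed by 0.193 at the median). For IL-15 against IL-2 there was no block. The fit was tested on simulated data with planted changes. The number of arrays limits precision. Where a group mean was under log2 5, the fold is a lower limit against log2 5. Alternatives covered the block, threshold, filter, scaling, a cap at log2 16, choice of probe set and left-out arrays. Members and gene lists were chosen with earlier results of these data known. Named genes were the members, cluster neighbours, at most 2 called genes each way per list, and the 3 most alike in profile to 4 members. Some further genes of the lists are also named, called or not. Motifs were searched with Python 3.11.15, and windows were aligned with Biopython 1.88.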

Additional observations from a re-analysis of the deposited data

How the results depend on the processing

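The counts of called members and of called genes depended on how the pairs, the threshold and the filter were treated. With no replicate block, 7 members passed in IL-2 and 7 in IL-15, and 1 (Gzmc) in the difference between cytokines, with 3803, 1321 and 1157 of all genes. The p-values without the block are too small by an unknown amount, because pair differences had been removed. The methods' threshold on unadjusted p gave 7, 7 and 2 members and 3391, 1269 and 1106 genes, and 3 members for IL-15 against IL-2 in WT cells. With no filter 0 members passed in IL-2, IL-15 or the WT comparison of cytokines, and 842 and 0 genes in IL-2 and IL-15. With values capped at log2 16, Gzmc, Gzmd, Gzme and Gzmg (4 members) passed in IL-15, with quantile normalization 2, and with each cytokine fitted alone 2 (41 genes). The mean of all probe sets gave 44 genes in IL-15 and 0 members in the WT comparison. Single probe sets in place of genes gave 2830 in IL-2, and 7805 and 7490 for IL-15 against IL-2 in WT and KO cells.

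Some signs turned. Gzma from IL-2 to IL-15 was 0.01 in WT and 0.04 in KO cells with the cap and 0.02 and 0.08 with arrays centred on their medians, and the Prf1 difference between cytokines was 0.09 after quantile normalization. Leaving out single arrays gave 0 to 4 members in IL-2 (537 to 1525 genes), 0 in IL-15 (0 to 11), 0 in the difference between cytokines (0 to 1), 0 to 4 in the WT comparison (3519 to 4505) and 4 to 7 in the KO comparison (3370 to 4334). The difference between cytokines then ran from -3.51 to 1.0 for Gzmf (-1.54 with all arrays), from -0.40 to 0.50 for Prf1 and from -0.07 to 0.18 for Gzma, and Gzmk in the WT comparison from -0.49 to 0.26. Gzma ran from -0.17 to 0.08 in IL-2, -0.03 to 0.06 in IL-15, -0.12 to 0.01 in the WT and -0.06 to 0.07 in the KO comparison. Of 630 alternatives for single members, 28 turned the sign, 37 lost and 31 gained a call, and 534 kept both. Quantile normalization moved the split of higher and lower calls from 2758 and 1754 to 2133 and 2481 in the WT comparison and from 2217 and 2109 to 2007 and 2743 in the KO comparison; the causes were not tested.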
